A study of Mus musculus with 8 samples.

Results

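The comparison described here asked whether RNA differences between MitoPositive and MitoNegative CD8 T cells were the same in tumor and in spleen at d7. It took the arm difference in the tumor (MitoPositive minus MitoNegative) and subtracted the arm difference in the spleen of the same donor. Its members were 12 hashtagged samples of the 18 in the series, 1 per donor in each of 4 groups. They held 10794 cells, of 18092 barcodes in all deposited matrices: 4779, 4620 and 1395 cells in the libraries of donors 1, 2 and 3. A cell needed at least 500 genes, under 15% mitochondrially encoded UMIs, and a top hashtag with 10 or more UMIs and at least a 3 times higher count than the second hashtag.

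All 4 groups began as activated mouse CD8 T cells grown with bone marrow stromal cells (BMSCs) whose mitochondria carried the red protein dsRed. T cells with dsRed were sorted as MitoPositive and T cells without it as MitoNegative, and each was transferred into B6 mice bearing tumors of B16KVP, a B16 melanoma line. Both names therefore give the state at transfer, and dsRed was not sorted again at d7 as far as the labels say. The groups were MitoPositive cells from spleen, MitoNegative cells from spleen, MitoPositive cells from tumor and MitoNegative cells from tumor. Ages and the genotype of the donors were not given in the sources used here. The deposited hashtag list gave the arms of a donor different host codes and gave spleen and tumor of 1 arm the same code. The arm and the recipients therefore cannot be told apart within a tissue, while tumor and spleen of 1 arm shared recipients. The main test took the donor as block and did not use this second pairing.

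A T cell that takes up mitochondria from a stromal cell gains organelles that hold their own DNA and the enzymes of oxidative phosphorylation, which make most of a resting cell's ATP. After transfer, CD8 T cells in the spleen of a tumor-bearing mouse divide and differentiate, and those in the tumor meet antigen, produce interferon gamma and gain inhibitory receptors such as PD-1. An arm difference present in only 1 of these sites gives a non-zero value here, and one of equal size in both gives 0.

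The 4 groups of a donor were sequenced in 1 library and separated by an antibody-borne oligonucleotide, the hashtag. These sequences are shown because each assignment of a cell to a tissue and an arm rests on them. They are written 5′ to 3′ from the deposited reference list.
H1, spleen MitoPositive: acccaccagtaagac
H2, spleen MitoNegative: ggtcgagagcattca
H3, tumor MitoPositive: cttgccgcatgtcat
H4, tumor MitoNegative: aaagcattcttcacg
Each is 15 bases long and each pair differs at 11 to 13 bases.

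The 12 samples were of very unequal size. MitoPositive spleen samples of donors 1, 2 and 3 held 1148, 2303 and 50 cells, and MitoNegative spleen samples 3429, 1237 and 558. MitoPositive tumor samples held 172, 995 and 671 cells, and MitoNegative tumor samples 30, 85 and 116. Summed UMIs per sample ran from 325046 to 26620208. Median UMIs per cell were 5288 to 7224.5 over the spleen samples and 10067 to 21893.5 over the tumor samples. A UMI of Cd3d, Cd3e or Cd3g, the T cell receptor complex genes, was present in 93.4% to 100% of cells of a sample. Cd4 was at 0 in 6 of 12 samples, most of them from tumor. In the spleen of donors 1, 2 and 3 it had 8, 44 and 0 UMIs in MitoPositive and 21, 14 and 65 in MitoNegative samples. The tumor samples had 4 Cd4 UMIs, all in the MitoPositive sample of donor 3. Barcodes shared between libraries numbered 6, 2 and 2.

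Cell numbers themselves differed between the tissues. The authors listed 528, 2800 and 2900 sorted MitoPositive tumor cells for donors 1, 2 and 3 against 124, 274 and 749 MitoNegative ones. In the spleen they listed 4000, 7600 and 338 MitoPositive against 10000, 3600 and 4209 MitoNegative cells. The ratio of MitoPositive to MitoNegative cells was thus 10.6, 4.84 and 48.2 times as high in the tumor as in the spleen. On the log2 scale this was 3.76 ± 1.69 (SD, n = 3 libraries), positive in 3 of 3, with an exact two-sided sign-flip permutation p = 0.25, the smallest that 3 libraries allow. The files do not say how these cells were counted or how many mice entered each number.

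Across the 12047 genes tested, none passed an adjusted p of 0.05 for the tumor minus spleen difference by edgeR's quasi-likelihood test (0%). The smallest adjusted p was 0.0604. At an unadjusted p under 0.05 there were 1585 genes, 13.2% of those tested, of which 1068 (8.87%) were higher and 517 (4.29%) lower. At an adjusted p under 0.1 there were 43 higher and 24 lower genes. A positive value means that MitoPositive cells stood higher relative to MitoNegative cells in the tumor than in the spleen. The median over all genes was 0.09 log2, and -0.02 with DESeq2 size factors, so list medians below are to be read against that median.

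The 0 calls depended on the fit. Other settings gave between 0 and 804 genes, and 384 without replicate 3, which holds the MitoPositive spleen sample of 50 cells. Counts were also simulated without donor, tissue or spleen arm effects, with changes placed only in the tumor MitoPositive samples. Recovery there was 32% for genes changed 2-fold and 65.7% for those changed 4-fold. This does not give the sensitivity for differences that lie in the spleen.

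**Figure D1:**
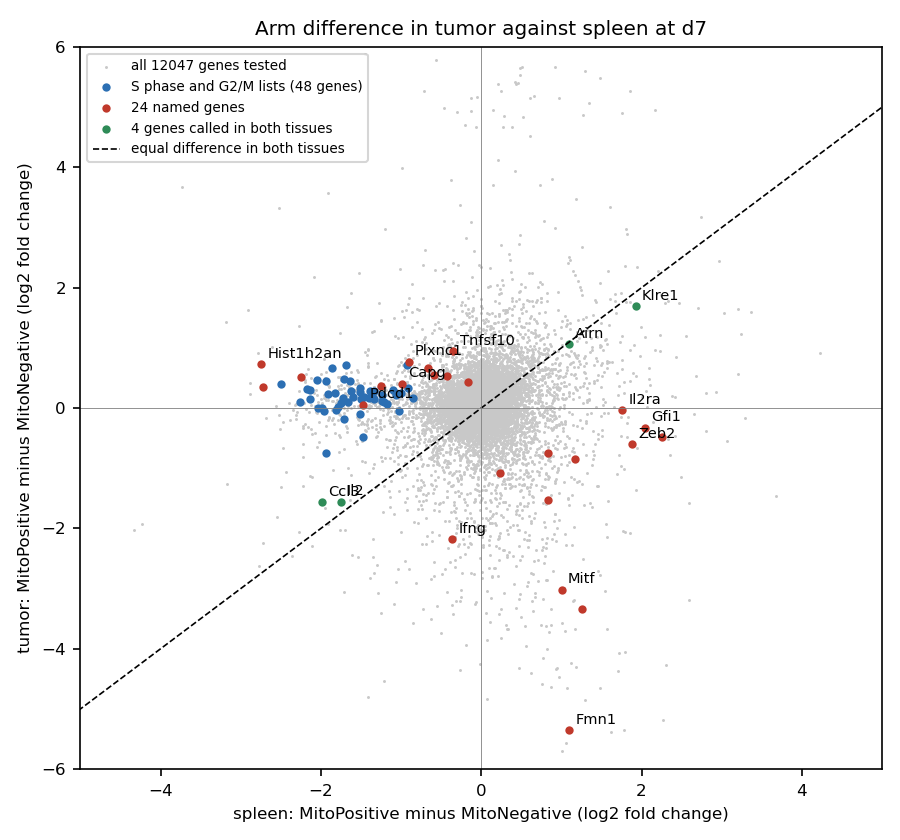
Each point is 1 gene, with the MitoPositive minus MitoNegative log2 fold change in spleen on the x axis and in tumor on the y axis, and points on the dashed line have the same arm difference in both tissues (10 of 12047 genes lie outside the axes). The S phase and G2/M genes lie left of 0 on the spleen axis with list medians of -1.38 and -1.71, and their medians on the tumor axis are 0.22 and 0.17 (0.71 and 0.90 without replicate 3).

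Each of the tissues had arm differences of its own. In the spleen 102 genes (0.847%) rose and 218 (1.81%) fell in MitoPositive cells. In the tumor 21 genes (0.174%) rose and 22 (0.183%) fell, or 11 and 28 with DESeq2 size factors. Without replicate 1, edgeR called 0 genes in either tissue (713 in the spleen and 1339 in the tumor at an unadjusted p under 0.05). Without replicates 2 and 3 it called 52 and 889 genes in the spleen, and 29 and 17 in the tumor. Of the 1585 genes at an unadjusted p under 0.05 for the difference, 247 had passed in the spleen and 29 in the tumor. The same 12 samples enter all these values, so the tissue values show where a difference lay and do not support it. The spleen arms also differed in the share of Trbv14, a T cell receptor V segment. It made up 66.3% to 79.0% of Trbv UMIs in MitoPositive and 85.3% to 96.8% in MitoNegative spleen samples. In tumor samples it made up 88.1% to 90.7% and 89.6% to 96.7%. How this share relates to the arm differences was not tested.

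Cell cycle genes had the largest medians of the pathway lists. They are given in the order of the cycle, with DNA synthesis first. All 24 tested genes of the S phase list had a positive tumor minus spleen difference, as 58.6% of all genes did. Of these, 23 were at an unadjusted p under 0.05, against 8.87% of all genes, and 0 passed the adjusted threshold by edgeR. The list median was 1.61, from an arm difference of -1.38 in the spleen and of 0.22 in the tumor. In the spleen 17 of 24 fell, against 1.81% of all genes, and in the tumor 0 passed by edgeR. The tumor median was 0.17, -0.14 and 0.71 without replicates 1, 2 and 3. In the spleen the count was 0 without replicate 1 (median -0.99), 3 without replicate 2 and 24 without replicate 3. The direction was positive in 3 of 3 libraries for 22 of the 24, against 21.7% of all genes. The list medians were 2.56, 1.93 and 1.00 in the libraries of donors 1, 2 and 3. Over all genes the median within a library was 0.19, 0.06 and 0.20.

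Tyms encodes thymidylate synthase, which makes the thymidine nucleotide for DNA. Its level in spleen was 22.3, 27.3 and 8.53 CPM (UMI counts per 1000000 of the TMM-scaled total of the sample) in MitoPositive cells of donors 1, 2 and 3 and 133.5, 77.8 and 49.4 CPM in MitoNegative cells. In tumor it was 92.7, 102.8 and 80.9 CPM in MitoPositive and 102.3, 46.1 and 82.7 CPM in MitoNegative cells. The tumor groups overlapped and the spleen groups did not, with 3 Tyms UMIs in the MitoPositive spleen sample of donor 3. The spleen difference was -1.91 (adjusted p = 0.012), and the tumor minus spleen difference 2.14 ± 0.42 (SE, adjusted p = 0.0953). Pclaf, a PCNA-binding factor of replicating cells, differed by 2.90 ± 0.57 (adjusted p = 0.0953). Clspn, a replication checkpoint gene, differed by 2.52, and Uhrf1, which keeps DNA methylation through replication, by 1.99.

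Histones that package new DNA are made in S phase. All 12 tested replication histone genes had a positive difference at an unadjusted p under 0.05, against 8.87% of all genes, with a median of 1.59. In the spleen 7 of them fell (0, 2 and 8 without replicates 1, 2 and 3), against 1.81% of all genes. The histone median was 2.40, 2.06 and 0.33 in the libraries of donors 1, 2 and 3. A positive sign in all 3 was seen for 8 of the 12, against 21.7% of all genes. Hist1h2an stood at 1.52, 2.04 and 0 CPM in MitoPositive spleen samples of donors 1, 2 and 3, with 11, 26 and 0 UMIs, and at 17.3, 9.60 and 9.49 CPM in MitoNegative ones. Tumor levels were 9.97, 7.97 and 9.88 CPM in MitoPositive and 4.09, 4.19 and 6.39 CPM in MitoNegative samples, the latter with 2, 4 and 19 UMIs. The arms did not overlap in either tissue, and their order was opposite in the tissues. The difference was 3.47 ± 0.49 (adjusted p = 0.0604). Hist1h2ap and Hist1h2ag, further H2A genes, differed by 2.77 ± 0.48 and 3.08 ± 0.54 (adjusted p = 0.0953 each). Hist1h2ag had 1 UMI in the MitoPositive spleen sample of donor 3. These H2A copies are nearly identical, and how reads were split between them was not tested.

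Mitosis follows DNA synthesis. All 24 G2/M genes had a positive difference, as 58.6% of all genes did, with a median of 1.82. Of these, 20 were at an unadjusted p under 0.05, against 8.87% of all genes. In the spleen 12 of the 24 fell, against 1.81% of all genes. The tumor median of the list, 0.17, was -0.26 without replicate 2 and 0.90 without replicate 3. Only 4 of 24 had a positive sign in 3 of 3 libraries, beside 21.7% of all genes. The list median was 3.01 and 2.65 in the libraries of donors 1 and 2 and -0.58 in that of donor 3. The fitted median was 1.12 without replicate 1 and 2.88 without replicate 3, and the spleen count 0, 0 and 24 without replicates 1, 2 and 3. Mki67, a marker of dividing cells, was at 31.5, 33.9 and 88.1 CPM in MitoPositive and 180.0, 92.7 and 103.9 CPM in MitoNegative spleen samples. Tumor samples had 87.3, 95.1 and 112.9 CPM in MitoPositive and 57.3, 40.9 and 113.7 CPM in MitoNegative cells. The spleen groups did not overlap, and the MitoPositive sample of donor 3 lay nearest to the MitoNegative ones. Its difference was 2.09 ± 0.46 (adjusted p = 0.106). Ccnb2, a cyclin of mitosis, differed by 2.52 ± 0.52, and by 3.38, 3.04 and 0.04 within the libraries of donors 1, 2 and 3.

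The share of cells in cycle was counted as well. In the spleen 19.3%, 17.9% and 12% of MitoPositive cells of donors 1, 2 and 3 had at least 0.1% of their UMIs from the S phase and G2/M lists, against 52.0%, 36.6% and 26.7% of MitoNegative cells. In the tumor the shares were 55.2%, 70.7% and 66.2% against 56.7%, 44.7% and 77.6%. The tumor minus spleen difference was 31.3, 44.7 and 3.29 percentage points (exact sign-flip permutation p = 0.25). With each cell thinned to 2000 UMIs it was 20.8, 28.9 and -1.25 points (exact p = 0.5), since depth per cell differed between the tissues. In cells with under 0.1% cell cycle UMIs the list medians were 0.17 for S phase, 0.76 for G2/M and 0.74 for the histones. These cells were chosen by UMIs of the S phase and G2/M lists themselves, so the fall of their medians follows in part from the choice. Fewer genes of the lists were tested there, 19, 9 and 9. Over all genes 54 passed in these cells.

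**Figure D2:**
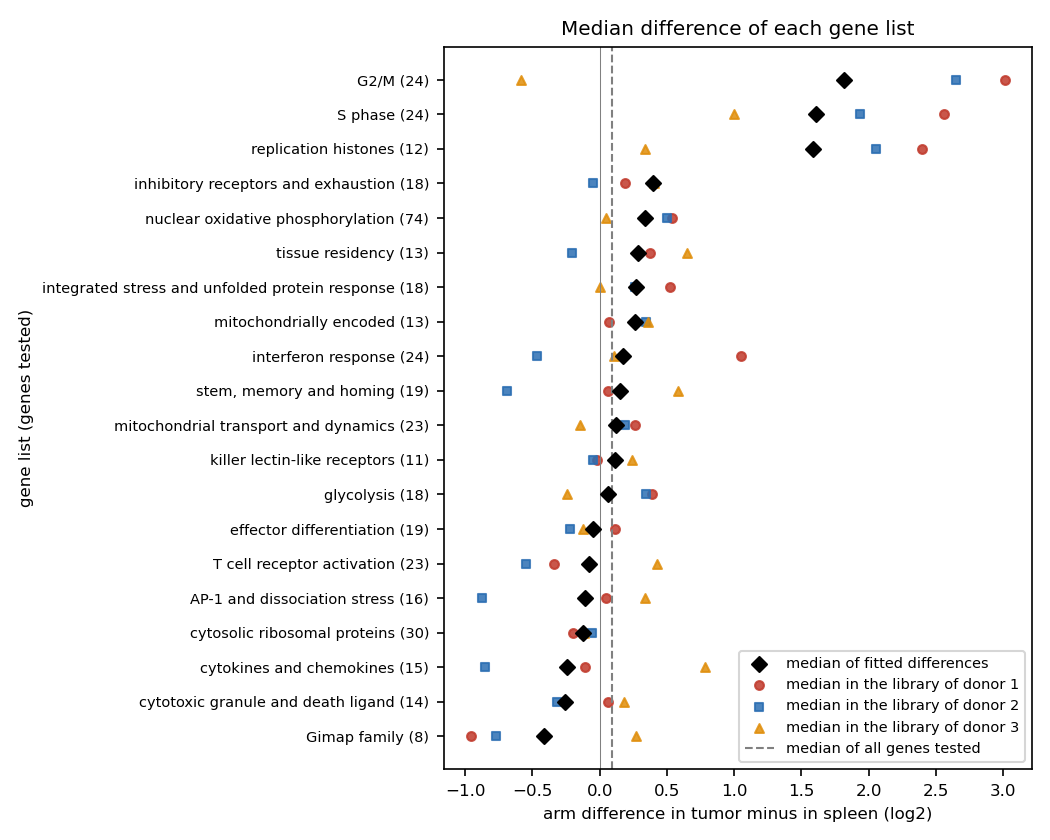
Median tumor minus spleen difference (log2) of each gene list on the y axis, as the median of fitted values (diamonds) and of log2(CPM + 1) differences within the library of each donor, with the median of all genes dashed. The S phase medians of the 3 libraries are 2.56, 1.93 and 1.00, whereas the G2/M median of donor 3 is -0.58.

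The genes with the smallest p in each direction are described next, although none passed at 0.05. They were required to have 1 sign in 3 of 3 libraries, which 2613 genes (21.7%) did with a positive and 1039 (8.62%) with a negative sign, so that their agreement between libraries is no support. Capg encodes a protein that caps actin filaments. It stood at 200.6, 133.7 and 150.7 CPM in MitoPositive and 371.8, 291.1 and 299.3 CPM in MitoNegative spleen samples of donors 1, 2 and 3. In the tumor it stood at 275.9, 323.9 and 278.9 CPM against 247.6, 202.4 and 219.3 CPM. MitoPositive samples were the lower group in the spleen and the higher in the tumor, with no overlap in either. The difference was 1.40 ± 0.20 (adjusted p = 0.0604), made of -0.99 in the spleen (adjusted p = 0.007, and 0.172 and 0.052 without replicates 1 and 2) and 0.41 in the tumor (adjusted p = 0.23). Capg lies at chr6:72538282-72562983 in GRCm38.

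Tnfsf10 encodes TRAIL, a death ligand of cytotoxic cells. It was at 33.9, 31.6 and 42.6 CPM in MitoPositive and 45.2, 40.5 and 45.7 CPM in MitoNegative spleen samples. In tumor it was at 66.1, 55.2 and 66.1 CPM in MitoPositive and 43.0, 26.2 and 33.0 CPM in MitoNegative samples. The groups overlapped in the spleen and did not in the tumor, where it rose by 0.94 ± 0.14 (adjusted p = 0.032), a call lost without any 1 of the 3 replicates (0.086 to 0.21). The tumor minus spleen difference was 1.29 ± 0.19 (adjusted p = 0.0604). Plxnc1, a semaphorin receptor gene, differed by 1.67 ± 0.25 (adjusted p = 0.0604) and fell by 0.90 in the spleen (adjusted p = 0.0205). It had 6 UMIs in the MitoPositive spleen sample of donor 3.

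Pdcd1 encodes PD-1, the inhibitory receptor that checkpoint antibodies block. It was at 11.9, 11.6 and 14.2 CPM in MitoPositive and 29.8, 42.8 and 21.3 CPM in MitoNegative spleen samples, with 5 UMIs in the MitoPositive sample of donor 3. In the tumor it was at 130.5, 158.8 and 144.0 CPM against 124.8, 169.9 and 124.4 CPM. All tumor samples were above all spleen samples, and the arms overlapped in the tumor only. The arm difference was -1.47 ± 0.19 in the spleen (adjusted p = 0.0041, and 0.209 and 0.092 without replicates 1 and 2) and 0.06 ± 0.16 in the tumor (adjusted p = 0.94), and the difference between them 1.53 ± 0.25 (adjusted p = 0.0846).

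The remaining higher named genes were Fhl2 (a LIM domain adaptor, 1.61 ± 0.29), H2afv (a histone H2A variant, 1.33 ± 0.25), Pmvk (phosphomevalonate kinase of cholesterol synthesis, 1.14 ± 0.20), Sec11c (a signal peptidase subunit, 0.96 ± 0.18) and Tmsb4x (thymosin beta 4, which binds actin monomers, 0.60 ± 0.11). Each had an adjusted p of 0.0953. Fhl2 and Pmvk had 2 and 4 UMIs in the MitoPositive spleen sample of donor 3. Tmsb4x was among the most abundant RNAs, at 11919.8 to 23999 CPM, and rose in the tumor by 0.44 (adjusted p = 0.0478, and 0.051 to 0.291 without 1 replicate).

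In the opposite direction stood Il2ra, the alpha chain of the high-affinity interleukin 2 receptor. Its spleen level was 29.2, 23.7 and 37.0 CPM in MitoPositive and 6.45, 10.6 and 7.76 CPM in MitoNegative samples of donors 1, 2 and 3. Tumor samples had 158.7, 161.6 and 188.1 CPM against 198.5, 179.3 and 153.7 CPM. The arms were separate in the spleen, overlapped in the tumor, and all tumor samples were above all spleen samples. The arm difference was 1.76 ± 0.21 in the spleen (adjusted p = 0.003, and 0.209 without replicate 1) and -0.03 ± 0.17 in the tumor (adjusted p = 0.98). The difference between tissues was -1.79 ± 0.27 (adjusted p = 0.0604), and -2.34, -1.24 and -1.83 within the 3 libraries. Among 19 alternative settings Il2ra passed in 13, from -2.67 to -1.38 over all of them. Il2ra lies at chr2:11642792-11693194.

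**Figure D3:**
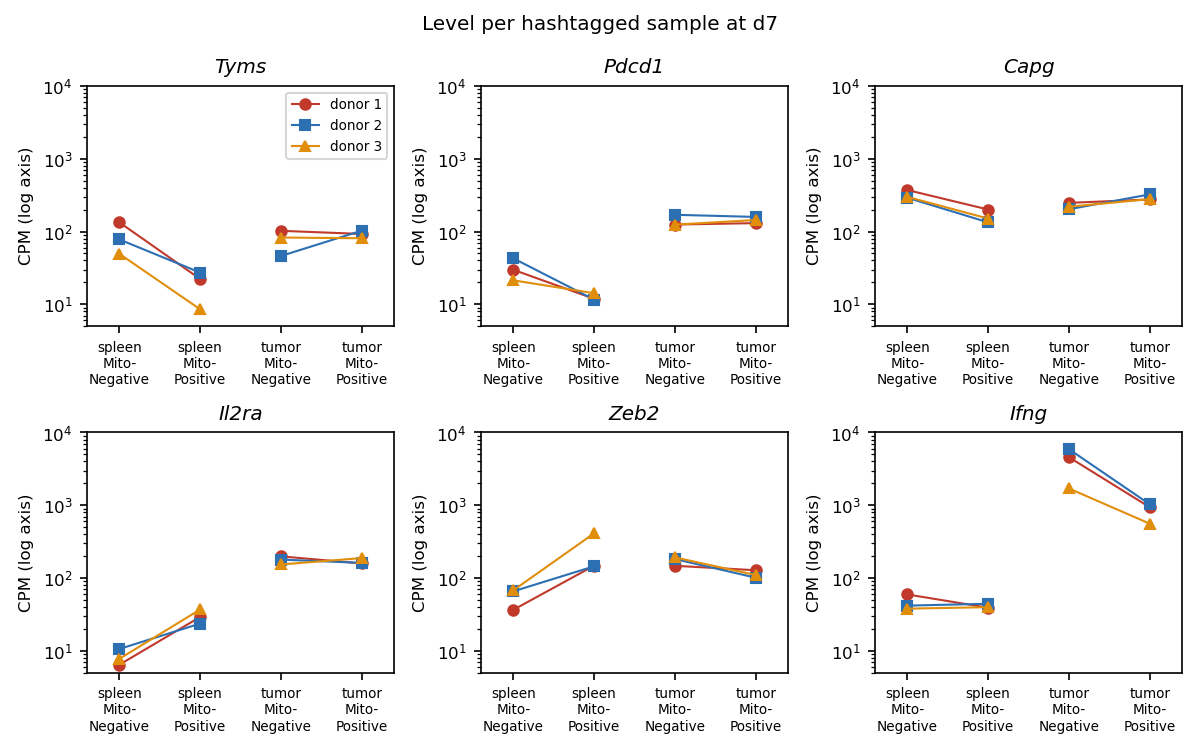
Level of 6 genes per sample in CPM on a log axis, by tissue and arm, with a line joining the arms of each donor. Pdcd1 and Il2ra stand higher in every tumor sample than in every spleen sample and their arms are apart in the spleen, while the Ifng arms are apart in the tumor, at 559 to 1032 CPM in MitoPositive and 1702 to 5903 CPM in MitoNegative samples.

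Zeb2 encodes a transcription factor of terminal effector T cells. It was at 148.0, 145.1 and 412.2 CPM in MitoPositive and 36.7, 65.7 and 67.9 CPM in MitoNegative spleen samples. Tumor samples had 128.0, 101.1 and 110.0 CPM against 147.3, 182.5 and 192.05 CPM. MitoPositive samples were the higher group in the spleen and the lower in the tumor, and the 50-cell sample of donor 3 was the highest of all. The arm differences were 1.88 ± 0.29 (adjusted p = 0.01) and -0.59 ± 0.29, and the difference between tissues -2.48 ± 0.41 (adjusted p = 0.0937). Gfi1, a transcriptional repressor gene, rose in the spleen by 2.05 (adjusted p = 0.0102) and differed between tissues by -2.37 ± 0.44 (adjusted p = 0.0953). It had 5 UMIs in each spleen sample of donor 3.

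Ifng encodes interferon gamma, the main macrophage-activating cytokine of T cells, and its arms were apart in the tumor. Its spleen level was 39.1, 44.3 and 39.8 CPM in MitoPositive and 59.5, 41.8 and 38.0 CPM in MitoNegative samples. Tumor samples had 940, 1032 and 559 CPM against 4578, 5903 and 1702 CPM. MitoPositive samples were the lower ones in the tumor of all 3 donors, and the arms overlapped in the spleen. It fell by 2.18 ± 0.23 in the tumor (adjusted p = 0.0065, and 0.051 without replicate 1), while the spleen difference was -0.36 ± 0.26 (adjusted p = 0.61). The difference between tissues was -1.82 ± 0.35 (adjusted p = 0.0953), and -1.69, -2.60 and -1.67 within the libraries.

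Several of the lower named genes rested on few UMIs or on 1 sample. Fmn1 and Mitf, the second a melanocyte transcription factor and a melanoma marker, had differences of -6.45 ± 1.19 and -4.02 ± 0.81 and were at 93.8 and 45.1 CPM in the MitoNegative tumor sample of donor 3 but at 0 in that of donor 1. Zfp608, a zinc finger gene, had -4.60 ± 0.85 with at most 40 UMIs in any sample, and Gpc1, a cell surface proteoglycan gene, had -2.73 ± 0.54. St3gal6, a sialyltransferase gene, had -1.58 ± 0.30, and -0.04 in Cd3 barcodes with few markers of other cells. Trio, an exchange factor of small GTPases, had -2.02 ± 0.40, Atp7a, a copper transporter gene, had -1.32 ± 0.27, and 1 of the features named Pakap had -2.37 ± 0.40. All these had an adjusted p of 0.0937 to 0.0953. Gpc1 and Trio had 2 and 3 UMIs in the MitoPositive spleen sample of donor 3.

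**Figure D4:**
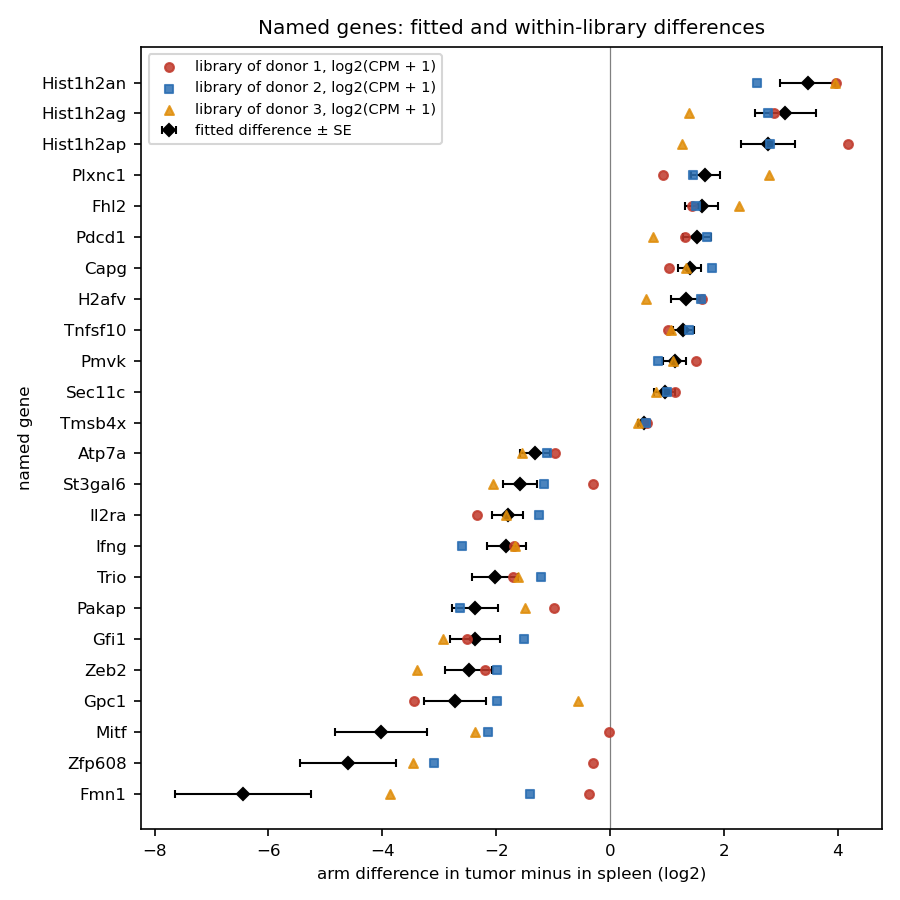
Tumor minus spleen difference (log2) of the 24 named genes, as the fitted value with its SE (black diamonds) and as the log2(CPM + 1) difference within the library of each donor (colored points). Il2ra lies at -2.34, -1.24 and -1.83 in the 3 libraries, whereas Mitf in the library of donor 1 lies at -0.01.

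Marker RNA of other cell types was measured beside these values, and its part in them was not tested. Over all genes, 4987 of 12047 had a negative difference and 4.29% were lower at an unadjusted p under 0.05. The 10 myeloid markers all had a negative difference, 6 at an unadjusted p under 0.05, with a median of -1.62. Their summed level was 306 to 453 CPM in MitoPositive and 508 to 997 CPM in MitoNegative tumor samples, against 346 to 915 and 310 to 531 CPM in the spleen. All 5 tested melanoma markers were negative, with a median of -4.43, and their sum was 6.14 to 1418.7 CPM in MitoNegative and 1.25 to 65.2 CPM in MitoPositive tumor samples, against 2.62 to 32.2 and 4.70 to 141.7 CPM in the spleen. Without replicate 3 the melanoma median was 1.93. Dct, a melanocyte enzyme gene, was at 756 CPM in the MitoNegative tumor sample of donor 3. At an unadjusted p under 0.05 1 of 3 NK cell markers and the single tested stromal marker were lower, and none of 3 neutrophil, 4 B cell, 2 erythroid and 2 CD4 or regulatory T cell markers were called by edgeR. The neutrophil, B cell, erythroid and CD4 or regulatory T cell lists had positive medians, 3.91, 0.66, 2.99 and 2.19. Without replicate 3 these were -0.97, -1.28, 0.16 and -0.85. Summed neutrophil markers stood at 239 to 952 CPM in MitoPositive and 130 to 1636 CPM in MitoNegative spleen samples. In the tumor they stood at 0.83 to 46.9 and 0 to 2.05 CPM. The 11 defining markers of other cells were Lyz2, C1qa, C1qb, C1qc, Csf1r, Pmel, Mlana, Tyrp1, Dct, Cd79a and Ms4a1. They include no neutrophil, NK cell or erythroid marker. Cells with at least 2 UMIs over these 11 were 2.24% to 3.92% of MitoPositive and 6.67% to 11.8% of MitoNegative tumor samples. They were 6.30% to 16% and 6.18% to 8.97% in the spleen. Without these cells, a setting chosen after seeing the data, 26 genes passed by edgeR (20 higher and 6 lower). Il2ra (-2.02, adjusted p = 0.00299), Capg (1.41), Zeb2 (-2.77), Tnfsf10 (1.11) and Pdcd1 (1.33) were among the 26. Ifng stood at -1.66 (adjusted p = 0.12) and Mitf at -2.27 (adjusted p = 0.54). Cells with other foreign RNA stayed in, so the part of other cells was not tested by this setting.

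The wider T cell lists had medians closer to that of all genes, and leaving out 1 replicate turned the sign of the cytokine (0.22 without replicate 2), inhibitory receptor (-0.11 without replicate 3), activation (0.13 without replicate 2), AP-1 (0.39 without replicate 2), stem (-0.54 without replicate 3), effector (0.05 without replicate 2), interferon (-0.18 without replicate 1) and killer receptor (-0.21 without replicate 3) medians. In these and the later lists higher and lower mean an unadjusted p under 0.05 by edgeR, as 8.87% and 4.29% of all genes had. Of 15 cytokine and chemokine genes, 2 were higher and 2 lower at an unadjusted p under 0.05, and the median was -0.24. Lta, a TNF-family cytokine gene, differed by -0.84 and fell in the tumor by 1.25 (adjusted p = 0.0493, and 0.097 to 0.256 without 1 replicate). Ccl1, a chemokine gene, differed by 2.19 ± 0.72 and had 6, 29 and 0 UMIs in the MitoPositive spleen samples. Of 14 cytotoxic genes 3 were higher, with a median of -0.25 over the list. Gzmc, a granzyme gene, was at 0 to 1.75 CPM over the spleen samples and at 53.2 to 308.9 CPM over the tumor samples. It rose in the tumor by 0.95 ± 0.16 (adjusted p = 0.0372, and 0.142 and 0.297 without replicates 1 and 2), and its difference from the spleen was 1.53 ± 0.44 (adjusted p = 0.162).

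The inhibitory receptor list went both ways, with 4 of 18 higher and 2 lower at an unadjusted p under 0.05 and a median of 0.40. Tox, a transcription factor of exhausted T cells, had a difference of 1.00 ± 0.23 (adjusted p = 0.115). Lilrb4a, an inhibitory receptor gene, had -1.20 ± 0.39 and rose in the spleen by 2.17 (adjusted p = 0.00304). Entpd1, the ectonucleotidase CD39, had -0.96 ± 0.32 and rose in the spleen by 1.76 (adjusted p = 0.00184).

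Differentiation lists were mixed as well. Of 19 effector differentiation genes 5 were higher and 3 lower at an unadjusted p under 0.05, with a median of -0.05. Over all genes these shares were 8.87% and 4.29%. S100a4, a calcium-binding protein gene of effector cells, had 1.04 ± 0.34 and fell in the spleen by 1.05 (adjusted p = 0.042). Of 19 stem, memory and homing genes 1 was higher and 2 lower, with a median of 0.15. Satb1, a chromatin organizer gene, had -1.18 ± 0.42. Of 13 residency genes 4 were higher and 0 lower by edgeR at an unadjusted p under 0.05, with a median of 0.28 (0.62 without replicate 2 and 0.05 without replicate 3). Gpr183, an oxysterol receptor gene, had 0.85 ± 0.21 and fell in the spleen by 0.98 (adjusted p = 0.0102). Of 11 killer lectin-like receptor genes 2 were higher (median 0.11). Among them Klrb1f had 1.98 ± 0.46 on 2 to 199 UMIs per sample. No gene of the activation list was higher and 2 of 23 were lower (median -0.08), none of 16 AP-1 genes reached an unadjusted p of 0.05 by edgeR (median -0.11), and 2 of 24 interferon response genes were higher (median 0.17). In the list of integrated stress and unfolded protein responses 1 of 18 was higher and 1 lower (median 0.27, and 0.07 without replicate 1). Sdf2l1, a chaperone gene of the endoplasmic reticulum, had 1.07 and fell in the spleen by 0.93 (adjusted p = 0.039).

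Mitochondrial lists are of interest because the arms were defined by mitochondria. Of 74 nuclear genes of oxidative phosphorylation 70 had a positive difference, against 58.6% of all genes. Of the 74, 22 were higher at an unadjusted p under 0.05, against 8.87% of all genes, and the list median was 0.34. It came from -0.30 in the spleen and 0.05 in the tumor, and was 0.54, 0.50 and 0.05 within the libraries (0.18 over all without replicate 2). Ndufb7, a complex I subunit gene, had 0.67 ± 0.19 (adjusted p = 0.165). All 13 mitochondrially encoded genes were positive, 5 at an unadjusted p under 0.05, with a median of 0.27 (0.13 without replicate 2 or without replicate 3) from 0.03 in the spleen and 0.28 in the tumor. With DESeq2 size factors these medians were 0.22 and 0.15, beside -0.02 for all genes.

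As a share of UMIs, mitochondrially encoded RNA was 2.22%, 2.12% and 2.07% in MitoPositive and 2.08%, 1.70% and 1.77% in MitoNegative tumor samples. In the spleen it was 2.25%, 2.16% and 1.83% against 2.03%, 2.12% and 1.93%. MitoPositive samples were higher in 3 of 3 donors in the tumor and in 2 of 3 in the spleen. The difference between tissues was -0.084, 0.378 and 0.400 percentage points (exact sign-flip permutation p = 0.5). The 3′ tags do not tell BMSC mitochondria from those of the T cells. Of 23 mitochondrial transport genes 1 was higher at an unadjusted p under 0.05 (median 0.12). Of 18 glycolysis genes 3 were lower, against 4.29% of all genes, among them Pdk1 (-0.86) and Hk2 (-0.77). The glycolysis median was 0.06, -0.06 with DESeq2 size factors, and -0.16, -0.14 and 0.23 without replicates 1, 2 and 3.

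Some genes had an arm difference that passed in both tissues, in 11 cases (0.0913%) in the same direction. Klre1, a lectin-like receptor gene of killer cells, was at 59.3, 63.2 and 110.9 CPM in MitoPositive and 14.0, 19.3 and 22.9 CPM in MitoNegative spleen samples. In tumor it was at 110.1, 119.7 and 109.0 CPM against 55.3, 34.6 and 29.6 CPM. The arms were apart in both tissues. It rose by 1.93 in the spleen and by 1.70 in the tumor, with a difference of -0.23 and a 95% interval of -0.97 to 0.51, which allows a difference in either direction. Airn, a long noncoding RNA gene of an imprinted locus, rose by 1.09 and 1.06, with an interval of -0.53 to 0.47. Il2, the interleukin 2 gene, fell by 1.76 and by 1.56, with an interval of -0.79 to 1.19. Ccl3, a chemokine gene, had an interval of -0.68 to 1.51. None of these 4 genes passed in the spleen without replicate 1 by edgeR (adjusted p 0.172 to 0.497), nor in the tumor (0.051 to 0.138).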

How the data were processed

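Per the submitters' processing notes, Cell Ranger 7.0.0 and Seurat 4.0.5 were used with the build mm10 (GRCm38). The authors deposited UMI counts of 32285 genes and 6 hashtags per barcode, not normalised. The authors' deposited list gave counts of sorted cells. The members and gene lists were chosen with earlier results of these data known. Of 5221, 4896 and 1467 d7 barcodes, 129, 104 and 24 had under 500 genes, and 270, 150 and 36 had no hashtag call. No doublet caller was run beyond the hashtag rule.

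UMIs were summed per sample, and samples were the replicates. In edgeR 4.0.16 (R 4.3.3), filterByExpr chose the genes and TMM the scaling, and 1 quasi-likelihood fit of 12 samples took library (donor) as block. This block does not pair tumor and spleen of 1 host code, which the donor by arm replicate block given below does. P-values were adjusted over all genes by Benjamini and Hochberg and read at 0.05. SEs came from the F statistic. Nothing states whether recipients were pooled. Donor pairs the samples, per the deposited list. Deviations from group means correlated at -0.11 to 0.31 within libraries and at -0.22 to 0.16 between them.

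Named genes were the 12 in each direction with the smallest unadjusted p and 1 sign in 3 of 3 libraries, as fewer than 12 passed. Receptor segments and clone-named models were not described. From each list, examples came from the up to 4 genes with the smallest p, and not all of these were described. Entpd1, S100a4 and genes that passed in both tissues were given outside this rule. The test was tested on simulated data of 11681 genes, where 6 unchanged genes were called. Alternative settings for the arm difference within each tissue were chosen after seeing the data.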

Additional observations from a re-analysis of the deposited data

Results flagged for a closer look

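Of the 24 named genes, 15 had arm differences of opposite direction in the tissues: each donor's log2(CPM + 1) difference had 1 sign in the tumor and the other sign in the spleen. Over all genes tested, 620 (5.15%) had such opposite signs. The 24 named genes were chosen for a small p and for 1 sign of the tissue difference in 3 of 3 libraries, which favors opposite arm directions. The count of 15 beside 5.15% therefore restates the choice in part and is no support. The difference between tissues was tested for each by edgeR, and none passed at 0.05 (adjusted p 0.0604 to 0.0953). MitoPositive cells were lower in the spleen and higher in the tumor for the actin regulators Capg (1.40) and Tmsb4x (0.60), the histone genes Hist1h2an (3.47), Hist1h2ag (3.08) and H2afv (1.33), the ligand gene Tnfsf10 (1.29), the receptor gene Plxnc1 (1.67), and Fhl2 (1.61), Pmvk (1.14) and Sec11c (0.96). They were higher in the spleen and lower in the tumor for the transcription factor genes Zeb2 (-2.48) and Gfi1 (-2.37) and for Gpc1 (-2.73), Trio (-2.02) and Atp7a (-1.32). These values are the log2 tumor minus spleen differences. In the MitoPositive spleen sample of donor 3 several of these signs rested on few UMIs. The UMIs were 0 for Hist1h2an, 1 for Hist1h2ag, 2 for Fhl2, 2 for Gpc1, 3 for Trio, 4 for Pmvk, 5 for Gfi1 and 6 for Plxnc1.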

How the results depend on the processing

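The count of 0 genes was also obtained with DESeq2 size factors, under 10% mitochondrial UMIs, HTODemux (Seurat 5.3.0, 958 at an unadjusted p under 0.05) and voom sample weights (1858). It was 2 without the replicate block, 2 with a donor by arm replicate block, 8 with HTODemux on tags scaled within each barcode, 26 without barcodes with defining markers of other cells, 35 with limma on within-library differences and 41 with a hashtag at least 10 times the next. It was 54 in cells with under 0.1% cell cycle UMIs, 68 with cells thinned to 2000 UMIs, 75 in Trbv14 barcodes, 97 in Cd3 barcodes with few markers of other cells, 164 with DESeq2 and 804 of 22737 genes without a count filter. Leaving out 1 replicate gave 0 to 384 genes: 0 without replicate 1 (844 at an unadjusted p under 0.05), 0 without replicate 2 (745) and 384 without replicate 3. HTODemux gave the same call for 35.5%, 43.1% and 94.3% of barcodes in libraries 1, 2 and 3, and 88.5%, 91.2% and 95.5% on scaled tags. In donor 1 it left 599 MitoNegative spleen cells in place of 3429 and 78 MitoNegative tumor cells in place of 30. The cause of these shifts was not tested. Scaled tags, the 0.1% limit, defining markers and voom weights were chosen after seeing the data. Leaving out all cycling barcodes was not run, since 2 cells remained in 1 sample. Of the 24 named genes, each kept its sign wherever it was tested except Gpc1, which was 3.91 (adjusted p = 0.862) with thinned cells. Samples of 30 and 50 cells limit the precision in tumor and spleen. For the arm differences, run under other settings after seeing the data, the spleen count of 320 genes was 54 with HTODemux, 89 in cells with under 0.1% cell cycle UMIs, 542 in Trbv14 barcodes, 561 with thinned cells, 570 with DESeq2, 765 in Cd3 barcodes, 773 without defining-marker barcodes, 833 without a count filter, 1236 with voom weights and 0 to 889 without 1 replicate. The tumor count of 43 was 4 with HTODemux, 11 with voom weights, 16 without defining-marker barcodes, 26 in Trbv14 barcodes, 26 with thinned cells, 120 with the 10 times hashtag ratio, 175 with DESeq2, 420 in Cd3 barcodes, 475 in cells with under 0.1% cell cycle UMIs, 711 without a count filter and 0 to 29 without 1 replicate.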

Other observations

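The Gimap and ribosomal protein lists had negative medians, and none of their genes passed for the difference between tissues by edgeR. Over all genes, 4987 of 12047 had a negative difference and 4.29% were lower at an unadjusted p under 0.05. A negative sign in 3 of 3 libraries was seen for 8.62% of all genes. Of 8 tested Gimap genes, GTPases of lymphocyte survival, 7 had a negative tumor minus spleen difference, 2 of them at an unadjusted p under 0.05, with a median of -0.41. The median was -0.96, -0.77 and 0.27 in the libraries of donors 1, 2 and 3, and 1 of the 8 had the same sign in all 3. It was -0.24 without replicate 1 and -0.97 without replicate 3. Gimap7 was at 206.5, 201.3 and 218.9 CPM in MitoPositive and 56.9, 86.9 and 66.0 CPM in MitoNegative spleen samples of donors 1, 2 and 3. In the tumor it was at 89.8, 80.5 and 92.5 CPM against 57.3, 83.9 and 31.6 CPM. The arms were apart in the spleen, where it rose by 1.57 (adjusted p = 0.00759), and overlapped in the tumor. Its difference between tissues was -0.83 ± 0.35 (adjusted p = 0.322). Of 30 cytosolic ribosomal protein genes 25 were negative and 7 lower at an unadjusted p under 0.05. Their median was -0.12, against 0.09 for all genes, or -0.24 against -0.02 with DESeq2 size factors. In the spleen 7 of the 30 rose, against 0.847% of all genes. That count of 7 was 0, 0 and 1 without replicates 1, 2 and 3. It was 0 without the replicate block or without a count filter.

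T cell receptor genes were counted as well. Trbv14 made up 66.3% to 79.0% of Trbv UMIs in MitoPositive and 85.3% to 96.8% in MitoNegative spleen samples. The arm difference was -17.8, -24.5 and -17.8 percentage points in the spleen and 1.18, -0.11 and -8.64 points in the tumor of donors 1, 2 and 3. The tumor value minus the spleen value was 18.97, 24.4 and 9.17 points (exact sign-flip permutation p = 0.25, the smallest possible). Over all genes, 4987 of 12047 had a negative difference, 4.29% were lower at an unadjusted p under 0.05 and 0.847% rose in the spleen. All 4 γδ T cell markers were negative, 1 of them at an unadjusted p under 0.05, and 3 rose in the spleen. Tcrg-C1, a constant segment of the γ chain, rose there by 2.65 (adjusted p = 0.0117) and had a difference of -2.76 ± 1.08 (adjusted p = 0.292), with 0 to 28 UMIs in the tumor samples.

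Zfp981, a zinc finger gene that passed in both tissues, was chosen here after its values were seen. It had 38, 108 and 3 UMIs in MitoPositive spleen samples and 1, 2 and 0 in MitoNegative ones, and 31, 160 and 127 against 0, 1 and 0 in the tumor. The arms were apart in all 3 donors and in both tissues, and the tumor minus spleen interval ran from -3.59 to 2.44.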
